A study of Mus musculus with 12 samples.

Results

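The transcripts described here are those whose response to bile duct ligation differed between 2 mouse strains. For each of 35556 probe sets the change in A/J mice (CBDL minus sham) minus the change in B6 mice was taken from group means on the log2 scale, and is called the interaction value below. All 12 arrays of the series entered, in 4 groups of 3. The groups were A/J sham, A/J CBDL, C57BL/6J (B6) sham and B6 CBDL, all male, aged 8 weeks and sampled on day 7 after the operation. CBDL is ligation of the common bile duct near the duodenum, which keeps bile out of the gut, and sham mice had the incision without dissection or ligation of the duct. Both are inbred strains, the labels name no engineered allele, and total RNA of jejunum was labelled. The 3 arrays of a group are labelled as separate samples, and p-values measure the spread between them.

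A positive interaction value means that the change after CBDL was more positive in A/J than in B6 mice. The same number equals the strain difference (A/J minus B6) in CBDL mice minus that in sham mice, so a gene can reach it through a strain difference that existed before ligation. Bile acids that reach the gut emulsify fat and act on nuclear receptors of the epithelium, and an obstructed duct removes both actions while the liver mounts an injury response. Major urinary proteins (Mup) are lipocalins that mouse liver secretes in quantity and that carry pheromones in urine, and inbred strains are known to differ in which Mup genes they carry and express.

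Markers of jejunum were bright. Lct and Sis, the lactase and sucrase of the brush border, had log2 signals of 11.7 to 12.5 and of 12.7 to 13 over the 12 arrays, whereas Fabp6, the bile acid binding protein of the ileum, lay between 4.07 and 5.94. Fabp6 and Slc10a2, the ileal bile acid transporter, were higher in every A/J CBDL than in every A/J sham array (for Slc10a2, 5.15 to 5.69 against 4.03 to 4.40). Of the colon markers, Slc26a3, a chloride exchanger, was bright at 9.76 to 10.3 in every array, and Car1, carbonic anhydrase 1, ran from 4.03 to 10.3, highest in B6 sham replicate 2. The part of gut position in the results was not tested. H2-Ea, which B6 mice lack by a known deletion in its promoter region, was higher in A/J than in B6 mice by 4.74 in sham and by 4.56 in CBDL mice on the log2 scale (limma, adjusted p = 1.03e-05 and 1.78e-05), and Nnt, the transhydrogenase of mitochondria whose gene is damaged in B6 mice, by 1.18 and 0.90 (adjusted p = 0.000278 and 0.00198). The array least like the rest was A/J sham replicate 1, with a mean correlation of 0.970 against 0.979 to 0.984. Markers of hepatocytes varied between groups and between sham arrays, as given beside the results they accompany.

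Of the 35556 probe sets, 13 had an interaction at a Benjamini-Hochberg adjusted p under 0.05 (0.0366% of those tested, limma). The change was more positive in A/J mice for 11 (0.0309%) and less positive for 2 (0.00562%). They stand for 4 genes or families: 10 Mup probe sets, Sqor, Ffar1 and Srd5a2. All 13 had the same adjusted p of 0.0476, because the adjustment ties neighbouring ranks, and the next probe set had 0.0886. At an unadjusted p under 0.001 there were 88 probe sets (0.247%). An unadjusted p under 0.05 was reached by 2447 (6.88%), 1338 positive (3.76%) and 1109 negative (3.12%). The median standard error of an interaction value was 0.19. Over all probe sets the A/J and B6 responses had a correlation of 0.258, a description across probe sets that are not independent. The calls were fragile to the loss of single arrays. Leaving out 1 array gave 0 calls for 9 of the 12 arrays, 15 without A/J sham replicate 3, 28 without B6 sham replicate 1 and 2 without B6 sham replicate 2. The processing mattered as well: 0 were called with quantile normalization, a trend and robust prior or the replicate number as a block, and 1 (Ffar1) without empirical Bayes. With only probe sets of 1 name 0 were called. That filter leaves out the 10 called Mup probe sets and Srd5a2 before the test, so it tried only Sqor and Ffar1 again.

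**Figure D1:**
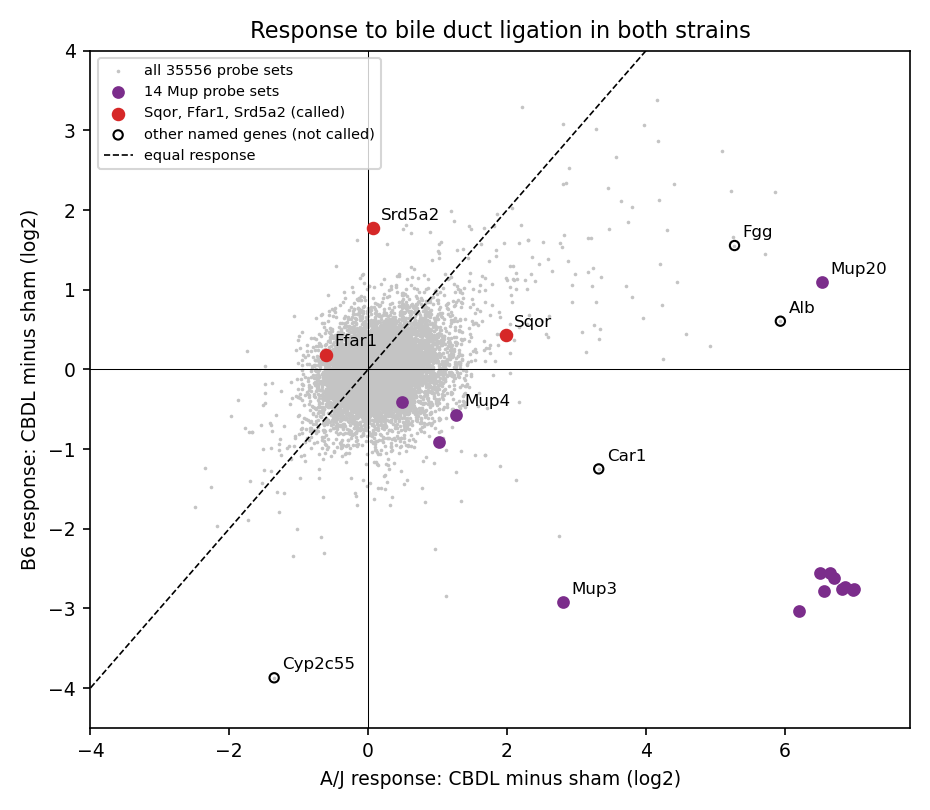
Response of each probe set to CBDL in A/J mice (horizontal axis) and B6 mice (vertical axis), both as CBDL minus sham on the log2 scale, with 1 grey point for each of 35556 probe sets. Points on the dashed line changed equally. The 9 bright Mup probe sets lie at the lower right, with A/J responses of 6.21 to 7.00 and B6 responses of -3.03 to -2.56, and Srd5a2 lies above the line.

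The Mup transcripts had the largest interaction values in the table. The array has 14 Mup probe sets, and 10 of them were called, named Mup1, Mup2 (6 probe sets), Mup4, Mup7 and Mup11. The genes are similar copies on chromosome 4, so a probe set's name need not fix which copy gave its signal. The 9 called probe sets with a mean signal above 6 correlated with each other at 0.991 to 1 over the 12 arrays and were treated as 1 measurement of the family.

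The promoters of the 3 Mup genes whose sequence was at hand were alike as well. Probe sets measure transcripts, so likeness of promoters does not show which copy gave a signal. Each line runs 5′ to 3′ on the strand of the gene, from 250 bases before to 50 bases after the start in RefSeq on GRCm38.p6, whose reference strain is C57BL/6J, and capitals mark TATATAA, a form of the TATA box. The windows are chr4:60139807-60140106 for Mup2, chr4:59960618-59960917 for Mup4 and chr4:62087268-62087567 for Mup3, all on the minus strand.
Mup2: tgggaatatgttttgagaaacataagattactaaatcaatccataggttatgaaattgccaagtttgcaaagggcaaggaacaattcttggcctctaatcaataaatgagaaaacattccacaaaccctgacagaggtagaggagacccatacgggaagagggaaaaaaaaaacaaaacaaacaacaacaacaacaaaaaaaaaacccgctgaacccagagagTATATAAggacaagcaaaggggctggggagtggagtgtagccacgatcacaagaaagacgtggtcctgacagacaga
Mup4: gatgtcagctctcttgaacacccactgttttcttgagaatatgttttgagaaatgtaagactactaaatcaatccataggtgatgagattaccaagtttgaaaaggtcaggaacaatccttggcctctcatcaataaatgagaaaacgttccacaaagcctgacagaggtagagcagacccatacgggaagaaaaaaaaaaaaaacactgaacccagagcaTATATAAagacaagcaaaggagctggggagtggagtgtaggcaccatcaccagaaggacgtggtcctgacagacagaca
Mup3: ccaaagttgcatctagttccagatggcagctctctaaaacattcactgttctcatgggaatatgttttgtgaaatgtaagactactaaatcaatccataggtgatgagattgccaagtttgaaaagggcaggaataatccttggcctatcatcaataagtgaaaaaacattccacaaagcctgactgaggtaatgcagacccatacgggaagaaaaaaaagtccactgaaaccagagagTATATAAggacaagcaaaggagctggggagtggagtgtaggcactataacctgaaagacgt

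In end-to-end alignments with gaps, Mup2 and Mup4 shared 243 identical bases (81% of the window length of 300), Mup3 and Mup4 249 (83%) and Mup2 and Mup3 218 (72.7%). Bases set against a gap count as not identical, so the shares also depend on how the windows are offset. The longest run shared without change by all 3 windows had 20 bases, tactaaatcaatccataggt. TATATAA, searched on both strands, was in each of the 3 windows and in 3.24% of 32851 mouse promoter windows of 300 bases. TTCNNNGAA, the motif bound by STAT factors, was in none of the 3 and in 8.3% of all windows. These are matches of letters, with no measurement of binding.

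The mean log2 signal of the 9 bright Mup probe sets was 3.15, 3.60 and 6.68 in the A/J sham arrays and 11.5, 11.1 and 10.9 in the A/J CBDL arrays. In B6 mice it was 9.58, 11.3 and 12.5 in sham and 9.19, 7.88 and 8.08 in CBDL. The groups did not overlap in either strain, CBDL lay above sham in A/J and below sham in B6 mice, and the sham arrays of each strain spread over about 3 log2 units. The A/J rise passed its own test in each of the 9 (log2 changes of 6.21 to 7.00, for Mup1 adjusted p = 0.00717), whereas the B6 change of -3.03 to -2.56 did not (for Mup1 adjusted p = 0.291). The interaction value was 9.06 to 9.76 in the 9 probe sets, for Mup1 9.24 (standard error 1.18) and for Mup7 9.76 (standard error 1.34).

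The order of the strains was crossed by ligation. For Mup1, the log2 difference A/J minus B6 was -6.25 in sham mice (adjusted p = 0.00339) and 2.99 in CBDL mice (adjusted p = 0.117). Mup4 was dim and called as well: its log2 signals were 3.37, 3.26 and 2.90 in A/J sham, 4.47, 4.49 and 4.35 in A/J CBDL, 3.78, 3.94 and 4.27 in B6 sham, and 3.48, 3.40 and 3.41 in B6 CBDL. Its interaction value of 1.83 (standard error 0.20) was the smallest of the called Mup probe sets and had the lowest unadjusted p, 2.31e-06. Its strain difference passed the test in both operations, at -0.82 in sham (adjusted p = 0.0140) and 1.01 in CBDL mice (adjusted p = 0.00450). The calls of these 10 Mup probe sets held without A/J sham replicate 3 or without B6 sham replicate 1. They ended when any other array was left out (adjusted p up to 0.208). The interaction value of the 9 bright probe sets stayed between 8.36 and 11.01 in every alternative that kept them.

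The other 4 Mup probe sets were not called. Mup3, a liver-secreted member, had log2 signals of 5.65, 5.58 and 5.49 in A/J sham, 8.56, 8.89 and 7.68 in A/J CBDL, 7.17, 8.62 and 10.5 in B6 sham, and 6.12, 6.03 and 5.36 in B6 CBDL. The pattern was that of the called members, with responses of 2.80 and -2.93 and an interaction value of 5.73 (standard error 0.91, adjusted p = 0.134). Mup20, which encodes the male pheromone darcin, ran from 2.81 to 3.44 in A/J sham, from 9.43 to 9.77 in A/J CBDL and from 9.63 to 9.92 in B6 CBDL. In B6 sham mice it was 5.49, 9.73 and 10.7, a range that enclosed the B6 CBDL arrays. Its A/J rise of 6.54 passed (adjusted p = 0.0123), its B6 change was 1.09 (adjusted p = 0.908), and the interaction value was 5.45 (adjusted p = 0.493). Without B6 sham replicate 1, the array at 5.49, the Mup20 value was 7.03 (adjusted p = 0.000153) and that of Mup3 was 6.53 (adjusted p = 0.0119). Leaving out any other single array called neither. Mup21 and Mup5 were dim, with interaction values of 1.92 (adjusted p = 0.568) and 0.90 (adjusted p = 0.662).

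Hepatocyte transcripts were measured beside the Mup signal. Alb, serum albumin, had log2 signals of 5.47, 5.31 and 8.44 in A/J sham, 12.2, 12.6 and 12.2 in A/J CBDL, 10.7, 11.6 and 12.3 in B6 sham, and 11.8, 12.5 and 12.1 in B6 CBDL. It rose by 5.94 in A/J mice (adjusted p = 0.00434) and had a change of 0.60 in B6 mice (adjusted p = 0.935), where the bright Mup probe sets had -3.03 to -2.56. Averaged over 30 enzymes and transporters of hepatocytes, the log2 signal was 4.83 to 4.91 in A/J sham, 6.54 to 6.90 in A/J CBDL, 5.03 to 6.71 in B6 sham and 6.36 to 6.66 in B6 CBDL. The A/J sham array with the highest Alb, replicate 3, also had the highest bright Mup signal of its group, and B6 sham replicate 3 likewise, whereas the B6 CBDL arrays carried Alb at the level of A/J CBDL with less Mup. The part of hepatocyte RNA in the Mup result was not tested, and in bulk tissue more cells of a type and more RNA per cell cannot be told apart.

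**Figure D2:**
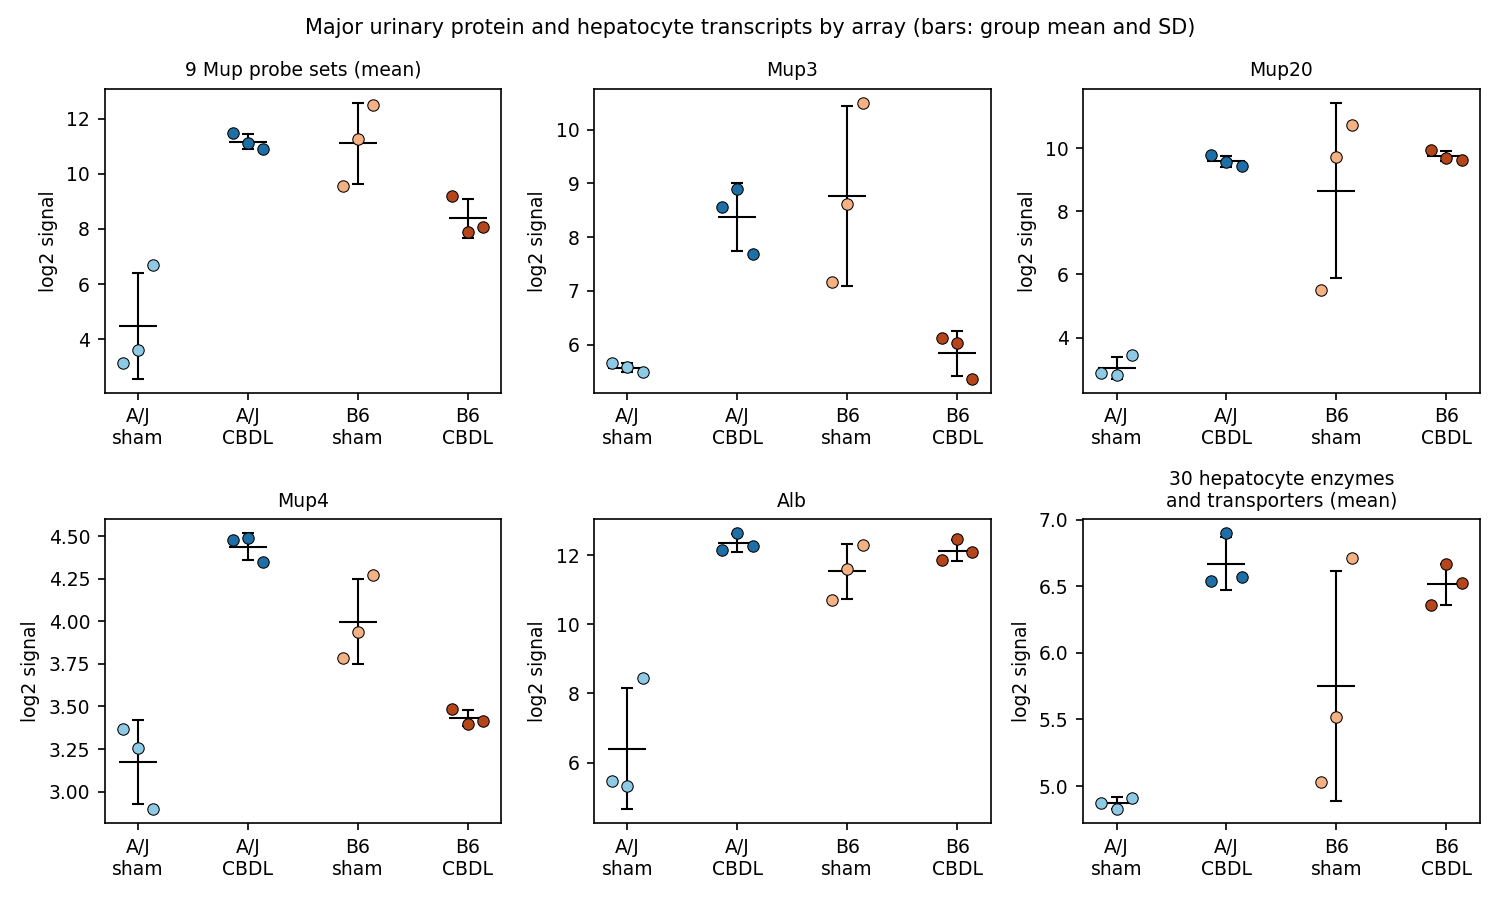
Log2 signal of Mup and hepatocyte transcripts in each array, with points for the 3 arrays of a group and bars for the group mean and SD. The bright Mup mean, Mup3 and Mup4 are higher after CBDL in A/J and lower after CBDL in B6 mice, while Alb in B6 CBDL (11.8 to 12.5) lies within or just above the B6 sham range (10.7 to 12.3).

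Sqor, the mitochondrial sulfide:quinone oxidoreductase that starts the oxidation of hydrogen sulfide, was brought in A/J mice to the level that B6 mice had without ligation. Its log2 signals were 7.10, 6.90 and 7.16 in A/J sham and 9.07, 9.20 and 8.84 in A/J CBDL. In B6 mice they were 8.96, 8.60 and 8.92 in sham and 8.98, 9.37 and 9.41 in CBDL. Only the A/J sham arrays stood apart, and all 9 others lay between 8.60 and 9.41. Sqor rose by 1.99 in A/J mice (adjusted p = 0.000538), and its change of 0.43 in B6 mice did not pass (adjusted p = 0.463). The interaction value was 1.56 (standard error 0.21), and the strain difference was -1.77 in sham (adjusted p = 0.000183) and -0.22 in CBDL mice (adjusted p = 0.588). Of 16 measured genes of sulfide oxidation and sulfur amino acids, Sqor alone was called, and the list's median interaction was 0.03 against -0.01 over all probe sets. Cdo1, cysteine dioxygenase, rose by 1.91 in A/J mice (adjusted p = 0.0141) and had an interaction value of 1.25 (adjusted p = 0.644).

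Ffar1, the receptor for long-chain fatty acids on enteroendocrine cells, had the opposite layout. Its log2 signals were 5.21, 5.19 and 5.28 in A/J sham, 4.60, 4.63 and 4.62 in A/J CBDL, 4.46, 4.45 and 4.39 in B6 sham, and 4.68, 4.59 and 4.59 in B6 CBDL. The A/J sham arrays lay above the other 9, which spanned 4.39 to 4.68, and the B6 groups did not overlap, with CBDL higher. Ffar1 fell by 0.61 in A/J mice (adjusted p = 0.00491), had a change of 0.18 in B6 mice (adjusted p = 0.565), and had an interaction value of -0.79 (standard error 0.10). All its signals were below 5.3 and so below the array medians of 5.36 to 5.51, by little in A/J sham and by more in the other 9 arrays.

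Srd5a2, the steroid 5-alpha-reductase that turns testosterone into dihydrotestosterone, responded in B6 mice. Its log2 signals were 4.77, 4.31 and 4.41 in A/J sham, 4.46, 4.68 and 4.55 in A/J CBDL, 5.19, 5.53 and 5.28 in B6 sham, and 7.33, 7.21 and 6.77 in B6 CBDL. The A/J groups overlapped, and each B6 CBDL array lay above all 9 others. Srd5a2 rose by 1.77 in B6 mice (adjusted p = 0.00755), had a change of 0.07 in A/J mice (adjusted p = 0.897), and had an interaction value of -1.71 (standard error 0.24). Its strain difference grew with ligation, from -0.83 in sham mice (adjusted p = 0.0300) to -2.54 in CBDL mice (adjusted p = 3.42e-05). Leaving out any of the 12 arrays ended the calls of Sqor, Ffar1 and Srd5a2 (adjusted p up to 0.208), with values that stayed at 1.42 to 1.67 for Sqor, -0.86 to -0.75 for Ffar1 and -1.87 to -1.57 for Srd5a2 over the alternatives.

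**Figure D3:**
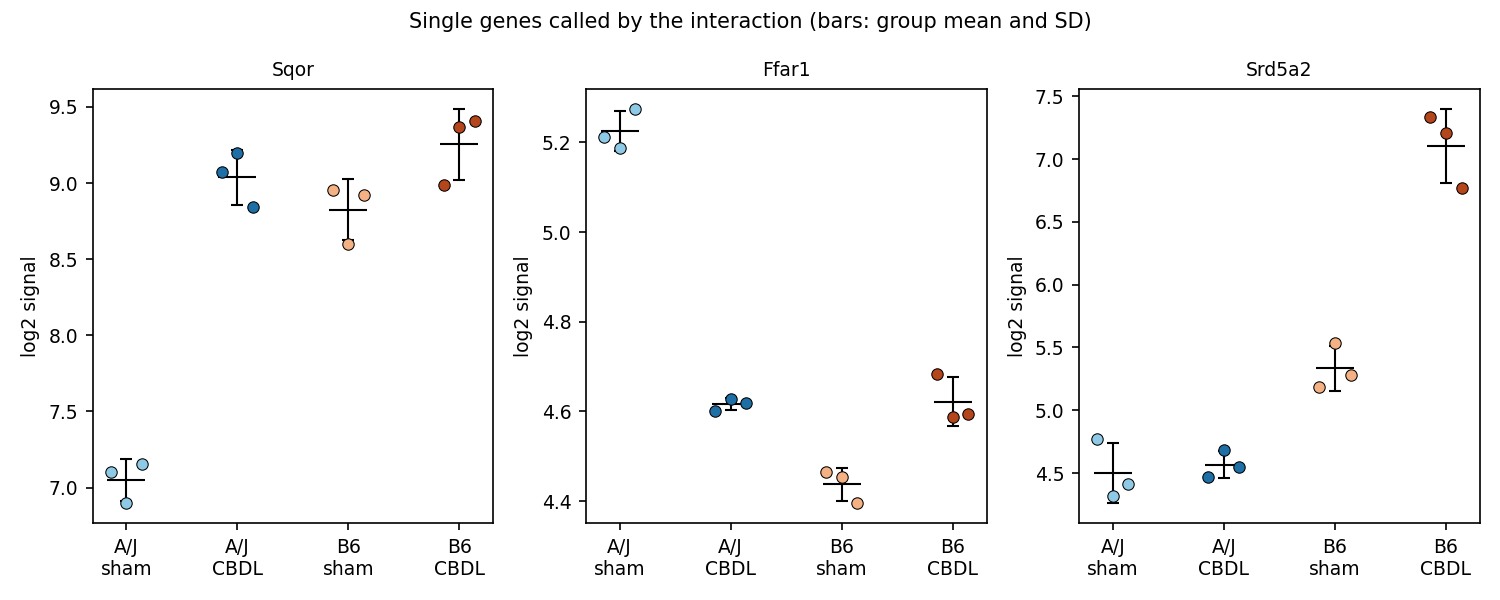
Log2 signal of Sqor, Ffar1 and Srd5a2 in each array (points, 3 arrays per group) with group means and SDs. A/J sham stands apart for Sqor (6.90 to 7.16) and Ffar1 (5.19 to 5.28), and B6 CBDL stands apart for Srd5a2 (6.77 to 7.33).

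Opposite responses were counted next, as probe sets with every CBDL array above every sham array in A/J mice, every CBDL array below every sham array in B6 mice, and both changes at least 0.5 on the log2 scale. There were 33 (0.0928% of 35556), against 1 with the directions exchanged (0.00281%), which has no gene name. Leaving out B6 sham replicate 1 gave 59 and leaving out A/J sham replicate 3 gave 51, and the exchanged direction gave 2 to 6 over the 12 arrays left out in turn. A group of 2 arrays meets the rule of no overlap more easily than a group of 3, so higher counts need not reflect the array left out. Of the 33, 12 were among the 6617 unnamed probe sets with the lowest numbers, and 21 were left without these. Without the minimum size the counts were 119 (0.335%) and 109 (0.307%). Of the 33, 12 were Mup probe sets and 13 had no name, and 10, 2 of them Mup, had a single name in the platform table: Mup3, Mup21, Sult2a8, Cyp2c29, Slco1a1, Thrsp, Klrd1, Abcc9, Rbpms and Gm21286. Since arrays and sizes chose these genes, their values are a description, and none of the 10 passed the adjusted test of the interaction (lowest adjusted p = 0.134, Mup3).

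Some of these genes have known roles in liver. Cyp2c29, a hepatic and intestinal cytochrome P450, had log2 signals of 5.32, 5.16 and 5.64 in A/J sham, 6.26, 6.92 and 5.83 in A/J CBDL, 8.70, 6.58 and 8.85 in B6 sham, and 5.45, 5.94 and 5.97 in B6 CBDL. Sult2a8, a bile acid sulfotransferase of mouse liver, had an A/J response of 1.34 and a B6 response of -1.66, where B6 sham ranged from 3.40 to 6.54. Slco1a1, an organic anion transporter of hepatocytes, had responses of 0.95 and -1.17, with B6 sham from 3.20 to 5.68. Both were dim: outside B6 sham, Sult2a8 ran from 2.63 to 4.13 and Slco1a1 from 2.74 to 4.19, below the array medians of 5.36 to 5.51. For Sult2a8 and Slco1a1, B6 sham replicate 3, the array with the most Alb in its group, gave the highest value. It was also the highest for Cyp2c29 (8.85, against 8.70 in replicate 1). The same array was the highest for Klrd1 (6.55), a receptor of natural killer and T cells. The part of hepatocyte RNA in these values was not tested.

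Thrsp, a regulator of fatty acid synthesis, had an A/J response of 0.66 and a B6 response of -0.98, with an interaction value of 1.64 (standard error 0.36, adjusted p = 0.367). The value was 1.98 (adjusted p = 0.0188) without B6 sham replicate 1, the only array whose removal gave a call for Thrsp. Klrd1, the CD94 receptor of natural killer and T cells, had log2 signals of 4.75, 4.88 and 5.28 in A/J sham, 5.30, 5.70 and 5.81 in A/J CBDL, 6.08, 5.95 and 6.55 in B6 sham, and 5.45, 5.46 and 5.58 in B6 CBDL. The strains differed in sham mice by -1.23 (adjusted p = 0.00638) and in CBDL mice by 0.11 (adjusted p = 0.863). Abcc9, a subunit of ATP-sensitive potassium channels in vessels and muscle, had responses of 0.59 and -0.68, and Rbpms, an RNA-binding protein of smooth muscle, of 0.58 and -0.53.

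Plasma proteins made by hepatocytes had positive interaction values throughout their list. Of 26 measured members, 26 had a positive value, 0 were called, and 18 had an unadjusted p under 0.05 in that direction (69.2%, against 3.76% of all probe sets), with a median of 1.47. This and the other lists were chosen with earlier results of these data known. Members of a list are not independent, so such counts are a description. Fgg, the fibrinogen gamma chain, had log2 signals of 3.23, 3.92 and 4.17 in A/J sham, 8.998, 9.20 and 8.95 in A/J CBDL, 6.19, 7.56 and 8.60 in B6 sham, and 9.17, 9.02 and 8.83 in B6 CBDL. After ligation the strains were at the same level, and they differed in sham mice by -3.68 (adjusted p = 0.00260). The interaction value of Fgg was 3.72 (adjusted p = 0.204), that of Alb 5.33 (adjusted p = 0.244), of Hpx, the heme carrier hemopexin, 2.98 (adjusted p = 0.399), and of Apoa2, an apolipoprotein of high-density lipoprotein, 2.92 (adjusted p = 0.301). Serpina1c, of the alpha-1-antitrypsin family of protease inhibitors, had 4.63 (adjusted p = 0.166), and the pair of probe sets shared by Serpina1a to Serpina1e had 4.14 and 4.11 (adjusted p = 0.166 for both). Values were smaller for Serpina1b, 3.31 (adjusted p = 0.319), and Serpina1d, 2.19 (adjusted p = 0.647).

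In A/J mice 23 of the 26 plasma protein genes rose at an adjusted p under 0.05 (A/J background 0.818% called in either direction), and in B6 mice 0 passed (0.0534%). The median response of the list was positive in both strains, 2.89 in A/J and 1.31 in B6 mice. The CBDL arrays all lay above the sham arrays for 26 of them in A/J mice and for 12 in B6 mice, against 8.04% and 7.89% of all probe sets. The median strain difference of the list was -1.17 in sham and 0.16 in CBDL mice. The median interaction was 0.84 without B6 sham replicate 3, the array whose hepatocyte enzyme mean of 6.71 lay above those of all 3 B6 CBDL arrays. Without A/J sham replicate 3 Alb was called (6.35, adjusted p = 0.00202), and without B6 sham replicate 1 Fgg (4.35, adjusted p = 0.0119), Hpx (3.65, adjusted p = 0.0119) and Serpina1c (5.30, adjusted p = 0.0168) were. Each of these genes was called for that array only, of the 12 left out in turn.

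Other liver lists leaned the same way, with 0 members called. Hepatocyte enzymes and transporters had a median of 0.72 (30 genes, 11 positive and 1 negative at an unadjusted p under 0.05, against 3.76% and 3.12% of all probe sets), acute phase proteins 0.92 (19 genes, 6 and 1), coagulation and fibrinolysis 0.49 (23 genes, 7 and 0) and complement 0.36 (21 genes, 7 and 0). Lists share members such as Fgb and C9. Cyp2e1, which oxidizes ethanol and other small molecules, had an interaction value of 3.36 (adjusted p = 0.512), Hp, the hemoglobin carrier haptoglobin, 2.36 (adjusted p = 0.647), and C8a, a chain of the complement attack complex, 1.45 (adjusted p = 0.647). Without B6 sham replicate 3 the median was 0.33 for hepatocyte enzymes and 0.23 for coagulation, and without A/J CBDL replicate 1 it was 0.40 for acute phase proteins. Lcn2, the neutrophil and epithelial lipocalin of the acute phase, rose in both strains, by 3.28 in A/J (adjusted p = 0.00678) and 3.02 in B6 mice (adjusted p = 0.0499), with an interaction value of 0.26 (standard error 0.59).

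**Figure D4:**
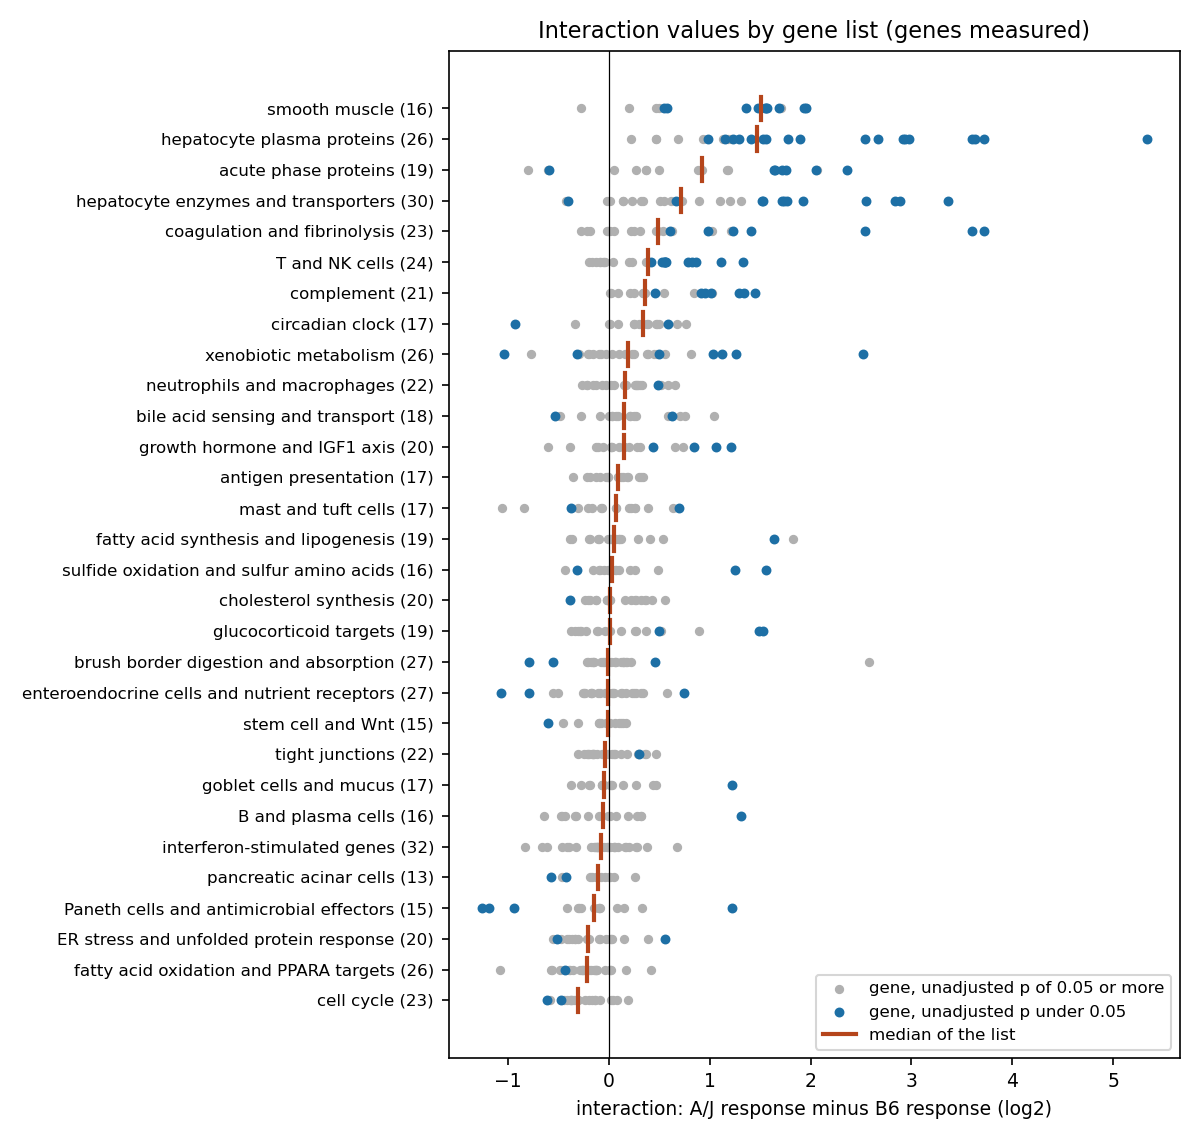
Interaction value (A/J response minus B6 response, log2) of each gene in 30 gene lists, with the number of measured genes in brackets and the list median as a vertical bar. Smooth muscle (1.51) and hepatocyte plasma proteins (1.47) have the highest medians, cell cycle (-0.31) the lowest, and most lists lie near 0.

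Smooth muscle genes had the highest list median, 1.51. Of 16 measured genes 15 had a positive value, 0 were called and 10 had an unadjusted p under 0.05 (62.5%, against 3.76% of all probe sets). Myh11, smooth muscle myosin, had log2 signals of 7.33, 9.65 and 9.19 in A/J sham, 9.83, 9.01 and 8.90 in A/J CBDL, 9.20, 10.04 and 9.52 in B6 sham, and 7.83, 7.94 and 8.69 in B6 CBDL. The A/J groups overlapped and the B6 groups did not. In B6 mice 14 of the 16 genes had all CBDL arrays below the sham arrays (7.62% of all probe sets did), with a median response of -1.08, against 0.26 in A/J mice, and no single gene passed the test in either strain. Desmin (Des) had responses of 0.27 and -1.41, and Pgm5, a muscle adhesion protein, of 0.79 and -1.15. The mean of the list was 6.35 in A/J sham replicate 1 and 7.81 and 7.35 in the other A/J sham arrays, and without replicate 1 the median was 0.90. With arrays weighted by quality it was 0.69.

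Genes of T and NK cells showed a similar layout at a smaller size. Of 24 measured genes 11 had a positive value at an unadjusted p under 0.05 (45.8%) and 0 a negative value, 0 were called, and the median was 0.38 (0.24 without B6 sham replicate 3). The B6 CBDL arrays all lay below B6 sham for 14 of the 24 genes, and the A/J CBDL arrays below A/J sham for 2, against 7.62% and 9.07% of all probe sets. Gzma, the granzyme of cytotoxic lymphocytes, had log2 signals of 7.41, 7.00 and 7.68 in A/J sham, 7.67, 7.57 and 7.14 in A/J CBDL, 9.44, 9.53 and 9.71 in B6 sham, and 8.63, 8.51 and 8.49 in B6 CBDL. Both B6 groups lay above the A/J groups, and the strain difference was -2.20 in sham and -1.08 in CBDL mice (adjusted p = 0.000135 and 0.0109), with an interaction value of 1.11 (adjusted p = 0.399). Cd3d, Cd3g and Cd3e, chains of the T cell receptor complex, had interaction values of 0.86, 0.82 and 0.55, whereas Cd4 (-0.20), Cd8b1 (-0.13) and Prf1, perforin, (-0.09) did not follow. Ifng, the interferon of these cells, had -0.17 (adjusted p = 0.932).

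**Figure D5:**
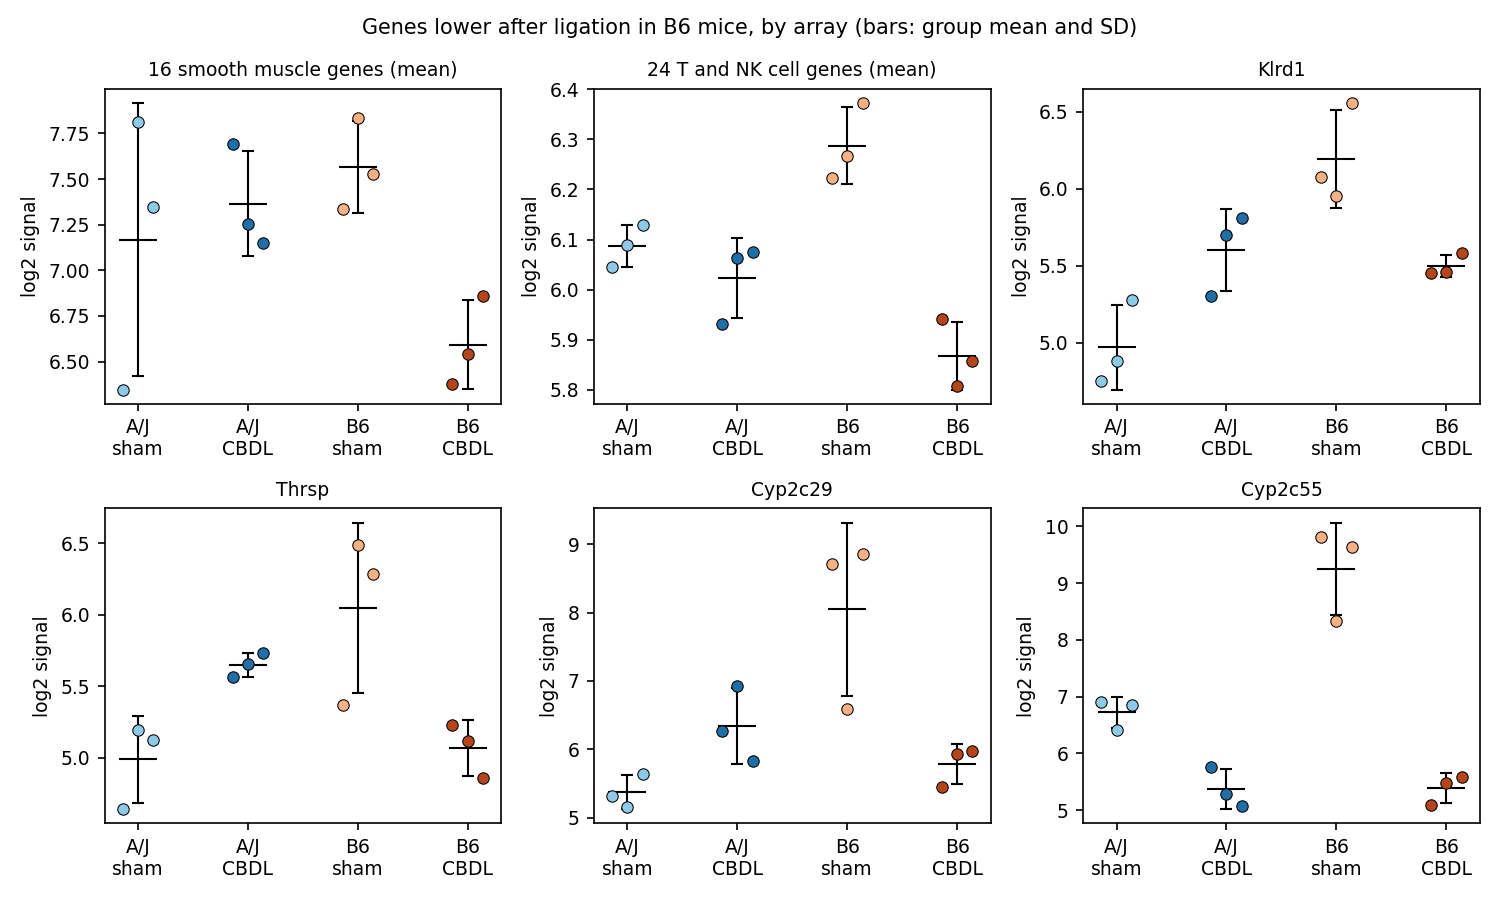
Log2 signal by array for the mean of 16 smooth muscle genes, the mean of 24 T and NK cell genes, and Klrd1, Thrsp, Cyp2c29 and Cyp2c55 (points, 3 arrays per group, with group means and SDs). The 3 B6 CBDL arrays lie below the 3 B6 sham arrays in every panel, and A/J sham replicate 1 is the low point of the smooth muscle panel (6.35).

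Genes of drug and steroid metabolism were split. Cyp2c55, a cytochrome P450 of the gut and liver that nuclear receptors induce, had log2 signals of 6.90, 6.42 and 6.85 in A/J sham, 5.75, 5.28 and 5.08 in A/J CBDL, 9.81, 8.33 and 9.63 in B6 sham, and 5.08, 5.48 and 5.59 in B6 CBDL. The CBDL arrays of both strains met at the same level from different starting levels. Cyp2c55 fell by 3.87 in B6 mice (adjusted p = 0.00755) and had a change of -1.35 in A/J mice (adjusted p = 0.105), with an interaction value of 2.52 (adjusted p = 0.294). The value was 2.98 (adjusted p = 0.0407) without B6 sham replicate 2, the only array whose removal gave a call for Cyp2c55. Cyp2c66 and Cyp2b10, P450s of the same nuclear receptor programmes, had values of 1.26 and 1.12 (adjusted p = 0.709 and 0.539). Of 26 measured genes of this list, 5 were positive and 2 negative at an unadjusted p under 0.05 (3.76% and 3.12% of all probe sets), and the median was 0.19.

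Of the 47 probe sets with 1 name and an unadjusted p under 0.001, 33 had positive and 14 negative interaction values, and several of the latter fell in A/J mice. Aqp8, a water and hydrogen peroxide channel, had log2 signals of 7.25, 6.92 and 6.73 in A/J sham, 5.50, 5.36 and 5.60 in A/J CBDL, 5.49, 5.56 and 6.07 in B6 sham, and 5.50, 5.88 and 5.87 in B6 CBDL. Only the A/J sham arrays stood apart, and the strain difference was 1.26 in sham (adjusted p = 0.00525) and -0.26 in CBDL mice (adjusted p = 0.584). It fell by 1.48 in A/J mice (adjusted p = 0.00547), and the interaction value was -1.53 (adjusted p = 0.166). Cyp2u1, a fatty acid hydroxylase, fell by 1.78 in A/J mice (adjusted p = 0.000810) and had a change of -0.74 in B6 mice (adjusted p = 0.122), with an interaction value of -1.04 (adjusted p = 0.319). Oat, ornithine aminotransferase, fell by 1.03 in A/J mice (adjusted p = 0.00290) and had -0.34 in B6 mice. Lhpp, a phosphatase, fell by 0.87 in A/J mice (adjusted p = 0.00620), from 8.27, 8.32 and 8.31 to 7.43, 7.47 and 7.38, and had -0.10 in B6 mice. Vsig10 and Sh2d1b2 fell by 0.62 and 0.58 in A/J mice (adjusted p = 0.0133 and 0.0152) and had -0.003 and 0.02 in B6 mice. Sh2d1b2 was dim, at 2.37 to 3.41 in all arrays, below the array medians of 5.36 to 5.51. Sh2d4a, Slc44a3 and Mccc2, the last an enzyme of leucine breakdown, had negative A/J and positive B6 responses, -0.27 and 0.52, -0.16 and 0.45, and -0.38 and 0.27, none of which passed.

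Cholesterol synthesis and interferon-stimulated genes had median interaction values near 0, and fatty acid oxidation and cell cycle genes had negative ones, against -0.01 over all probe sets. Cholesterol synthesis genes had a median A/J response of 0.76, a median B6 response of 0.78 and a median interaction of 0.01 over 20 genes, and 13 rose in A/J and 1 in B6 mice, where 0.818% and 0.0534% of all probe sets were called in either direction. Interferon-stimulated genes had median responses of -0.45 and -0.37 and a median interaction of -0.08 over 32 genes, with 0 at an unadjusted p under 0.05. Fatty acid oxidation genes had a median of -0.22 over 26 genes, 21 of them negative (0 positive and 1 negative at an unadjusted p under 0.05, against 3.76% and 3.12% of all probe sets). Cell cycle genes had -0.31 over 23 genes, 19 of them negative (0 and 2), a median that was -0.09 without A/J CBDL replicate 1 and turned to 0.05 with arrays weighted by quality. The intervals allowed by 3 arrays per group are wide, so medians near 0 do not show that the strains responded alike.

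Over all probe sets the A/J and B6 responses had opposite signs for 43% and the strain difference was larger in sham than in CBDL mice for 52.5%. Among the 13 called probe sets, opposite signs were found for 11 and a larger strain difference in sham mice for 11. The 9 near-identical Mup probe sets weigh most in both counts. A large interaction value itself favours opposite signs, so the count of signs is no separate result. Of the 2447 probe sets at an unadjusted p under 0.05 (limma interaction), 81.5% had opposite signs. A larger strain difference in sham mice was found for 55.8% of them.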

How the data were processed

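The platform table of the 12 arrays is that of the Mouse Gene ST design of Affymetrix. The authors deposited log2 values made, per the labels, with RMA in the Affymetrix Expression Console, whereas the paper's methods name GCRMA and another mouse array. The software versions were not given in any source used here. The values were used as deposited. Array medians ran from 5.36 to 5.51, and 3 arrays per group limit the precision.

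The platform table names 1 gene for 21789 probe sets, several for 1621 and none for 12146. Most Mup probe sets and Srd5a2 have no name there and took that of the study's own gene list. Promoters came from the RefSeq table on GRCm38.p6.

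limma 3.58.1 (R 4.3.3; lmFit, contrasts, eBayes) estimated 4 group means from the 12 arrays, and p-values were adjusted over all 35556 probe sets by Benjamini-Hochberg, called under 0.05. Genes were grouped into 30 lists, with the brightest probe set of each gene. The rule for named genes took every called probe set, the 10 highest and 10 lowest values at an unadjusted p under 0.001 with 1 name, the 10 largest opposite responses, the 3 largest of a list at an unadjusted p under 0.05, genes the study's text names and strain check genes, and the text prints part of these. Further list members named were chosen after their values were seen. The members and lists were chosen with earlier results of these data known. The fit was tested on simulated data. Alternatives were other normalizations, filters, variance models and thresholds, array weights, a replicate block and each array left out.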

Additional observations from a re-analysis of the deposited data

Results flagged for a closer look

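The test of the difference between the strains in the response to ligation called 13 probe sets (limma interaction, adjusted p = 0.0476 for each), and 0 with a replicate block, quantile normalization or a trend and robust prior. With only probe sets of 1 name it also called 0, but that filter leaves out the called Mup probe sets and Srd5a2. The interaction value on the log2 scale was 9.76 for Mup7, 9.59, 9.76, 9.06, 9.33, 9.34 and 9.21 for the 6 Mup2 probe sets, 9.61 for Mup11, 9.24 for Mup1 and 1.83 for Mup4. It was 1.56 for Sqor, -1.71 for Srd5a2 and -0.79 for Ffar1. Every A/J CBDL array lay above and every B6 CBDL array below the sham arrays of its strain for the 10 Mup probe sets, and the reverse held for Ffar1.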

How the results depend on the processing

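Of the 13 calls (11 more and 2 less positive in A/J mice), 12 remained with each array's median subtracted and 12 without the 30% dimmest probe sets, and 13 of the 17 calls with array weights were shared. No probe set was called with quantile normalization, with only probe sets of exactly 1 gene name, with a trend and robust prior, or with the replicate block (0 in all and 0 in each direction by limma in each of these, with 1634 to 2701 at an unadjusted p under 0.05 over all alternatives that gave 0 calls). The filter to exactly 1 gene name leaves out the called Mup probe sets and Srd5a2, so it tried only Sqor and Ffar1 again. Without empirical Bayes 1 was called, Ffar1, with 0 more and 1 less positive. A change of over 1 left 12, and an adjusted p under 0.1 gave 14. Leaving out 1 array gave 0 to 28 calls, 0 to 28 of them more positive and 0 less positive, 31 to 59 opposite responses with A/J up, 2 to 6 with A/J down and a median over all probe sets of -0.02 to 0.01. Opposite responses with A/J up were 21 without the dimmest probe sets and 10 with exactly 1 name, and those with A/J down were 0 in both, 2 with medians subtracted and 2 with array weights. The median interaction of all probe sets was -0.042 with quantile normalization and -0.0711 with medians subtracted. Chosen after seeing the data, leaving out both sham arrays numbered 3 gave 17 more and 1 less positive, 75 opposite responses with A/J up and 10 with A/J down. With fewer arrays in a group the rule for opposite responses is easier to meet. Leaving out the 6617 unnamed probe sets numbered below the first named gave 23 calls, 20 of them more positive, and 21 opposite responses with A/J up. Leaving out 1 array moved the value of Lcn2 from 0.26 to between -0.0854 (without A/J CBDL replicate 1) and 0.863 (without A/J CBDL replicate 2), and that of Hgf from 0.10 to between -0.0165 (without A/J CBDL replicate 3) and 0.199 (without A/J CBDL replicate 1). The cause of these changes was not tested.

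Replicate numbers did not pair the arrays: over 18 pairs of same-numbered arrays the correlation of deviations from the group means ran from -0.312 to 0.358, and 4 of the 12 arrays correlated best with one of their own number. The replicate block lowered the calls from 13 to 0.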

Other observations

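Clock and growth hormone axis genes had 1 and 4 members with a positive value at an unadjusted p under 0.05 (3.76% of all probe sets), the clock list also 1 with a negative value (3.12%), and no member of either list was called. Nr1d1, the clock repressor REV-ERB alpha, had log2 signals of 9.91, 10.5 and 10.2 in A/J sham, 8.34, 8.43 and 8.67 in A/J CBDL, 9.56, 9.93 and 9.96 in B6 sham, and 9.12, 9.22 and 8.74 in B6 CBDL. It fell by 1.72 in A/J mice (adjusted p = 0.00298) and had -0.79 in B6 mice (adjusted p = 0.186), with an interaction value of -0.93 (adjusted p = 0.568). Cry1, another clock repressor, rose by 0.68 in A/J mice (adjusted p = 0.0316) and had 0.09 in B6 mice. The 17 clock genes had a median interaction of 0.34, which was 0.17 without B6 CBDL replicate 1. Igf1, the growth factor that growth hormone induces in liver, rose by 1.29 in A/J mice (adjusted p = 0.0180) and had 0.08 in B6 mice, with an interaction value of 1.21 (adjusted p = 0.460). The 20 genes of its axis had a median of 0.15. In the enteroendocrine list, where Ffar1 was the called member, Gcg, the proglucagon gene of L cells, fell by 1.48 in A/J mice (adjusted p = 0.0104) and had -0.42 in B6 mice, with an interaction value of -1.07 (adjusted p = 0.568). Scg2, a granule protein of endocrine cells, had 0.07 in A/J and -0.68 in B6 mice and an interaction value of 0.75 (adjusted p = 0.331).

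The following antibody and defence genes did not pass the interaction test. Jchain, the joining chain of secreted antibodies, had an A/J response of 0.12 and a B6 response of -1.19, with an interaction value of 1.31 (adjusted p = 0.568). Retnlb, a goblet cell protein with antibacterial action, had 5.48, 3.56 and 4.58 in A/J CBDL and 3.11 to 3.55 in the other groups, with an interaction value of 1.22 (adjusted p = 0.693). Reg3g, an antibacterial lectin, had an A/J response of 0.50 and a B6 response of 1.76 (adjusted p = 0.614 and 0.177), with an interaction value of -1.26 (adjusted p = 0.722). The other 15 lists had median interaction values of -0.21 to 0.16. Car1, carbonic anhydrase 1, had 4.50, 4.70 and 4.03 in A/J sham, 7.76, 7.93 and 7.496 in A/J CBDL, 7.94, 10.3 and 6.65 in B6 sham, and 6.39, 7.15 and 7.58 in B6 CBDL, with an interaction value of 4.57 (adjusted p = 0.367).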
